A study of Mus musculus with 4 samples.

Results

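Colitis provoked by trinitrobenzene sulfonic acid (TNBS) was compared with its vehicle control in mouse colon, on the 2 of the series' 4 arrays that hold these groups. TNBS is a hapten: it attaches to tissue proteins, and in ethanol it inflames the rodent colon. Both groups were female mice given 0.1 ml of liquid with 50% ethanol: mock mice got ethanol alone, and TNBS mice got ethanol with TNBS at 250 mg/kg. The strain is labelled BALB/c for the mock group and BALC/c for the TNBS group, the tissue is colon taken on day 7, and the labels used here give no age. The study divided 24 mice into 4 groups of 6, and its other groups received TNBS with ginger extract or with zingerone. Each group is 1 array, and the labels do not say whether its RNA came from 1 mouse or from a pool. The comparison sets TNBS in ethanol against ethanol alone and holds no untreated colon.

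Each array reports 1 Cy3 intensity per probe, and the probes of a gene were averaged on the log2 scale. Genes stayed in if their mean was at least the named probes' median on 1 or both arrays, an intensity of 270.5 for mock and 269 for TNBS. This left 9614 of 16637 named genes. A gene under the median on 1 array stayed in only if it was brighter on the other. Lists thus hold higher members kept through TNBS alone, such as Arg2, Tph1, Ncf1, Nfe2, Spp1 and Itgb2. They also hold lower members kept through mock alone, such as Cftr and Isx. Such members count in the shares given below. Below, higher and lower mean a gap of 2-fold or more between TNBS and mock. A group is a single array, so there is no replicate spread, error or test behind any value, and precision is limited by the number of arrays.

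Surface cells of the colon take up short-chain fatty acids made by bacteria, oxidise them in mitochondria and spend the energy on absorbing sodium, chloride and water. Transcription factors of the CDX and HNF4 families maintain this programme, and junctions between the cells keep the contents of the gut out of the tissue. In inflamed colon, leukocytes enter, the epithelium is shed and rebuilt, and connective tissue lays down matrix. Energy metabolism, transport, transcription factors and adhesion are described in turn.

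On the TNBS array 511 genes were higher, 5.32% of those kept, and 455 were lower, 4.73%. The median difference over all kept genes was -0.035 (log2, TNBS minus mock), with the 25th and 75th percentiles at -0.33 and 0.28. The deposited arrays share 1 distribution of values, and the split between higher and lower moved with the scaling. Shifting all differences so that the 18 kept genes of cytosolic ribosomal proteins had a median of 0, a shift of 0.27, gave 867 higher and 246 lower genes. These 18, of 25 such genes on the array, ran from -1.23 to 0.59 before the shift. Calls were more frequent among bright genes: with kept genes cut into 10 equal bins by brightness, 11.2% were higher and 11.7% lower in the brightest bin, against 1.46% and 1.25% in the bin next to the dimmest. Of 49 higher genes with several probes, all probes of 43 lay on the high side and all probes of 10 passed 2-fold. Among 26 lower genes with several probes these numbers were 23 and 8.

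The labelled tissue was checked by its markers. All 12 colon epithelium markers on the array passed the filter. Of these 3 were lower, with a median of -0.62 (log2), and their summed intensity was 157342 on mock and 133325 on TNBS. Neutrophil markers had 6 of 7 kept members higher, and their summed intensity went from 5737 to 148978. Adipocyte markers had 4 of 5 higher, from 9774 to 64164, and Fabp4 alone made up 4159.5 and 45906 of these sums. The B and plasma cell list had 3 of 4 lower, from 7982 to 3797. Goblet cells had 3 of 7 kept markers lower (median -0.92), and their sum fell from 204069 to 117655. For monocytes and macrophages 2 of 8 kept markers were higher (median 0.40), the sum going from 4218 to 31739. Cd14 alone made up 1322 and 28071 of these sums, so the rise in the sum is mainly that of 1 gene. Adgre1 (-0.38), C1qa (-0.08) and Lyz2 (-0.24) of that list lay below mock by less than 2-fold. Of 16 marker lists only these are described. The part of these cell types in the gene groups below was not tested. In whole tissue, fewer cells of a type and less RNA per cell cannot be told apart.

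The plot of list shares gives the outline of the comparison: the respiratory chain, mucin glycosylation, ion transport and epithelial transcription factor lists had more lower than higher members, and the metal handling, adhesive matrix and leukocyte adhesion lists more higher than lower ones.

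**Figure D1:**
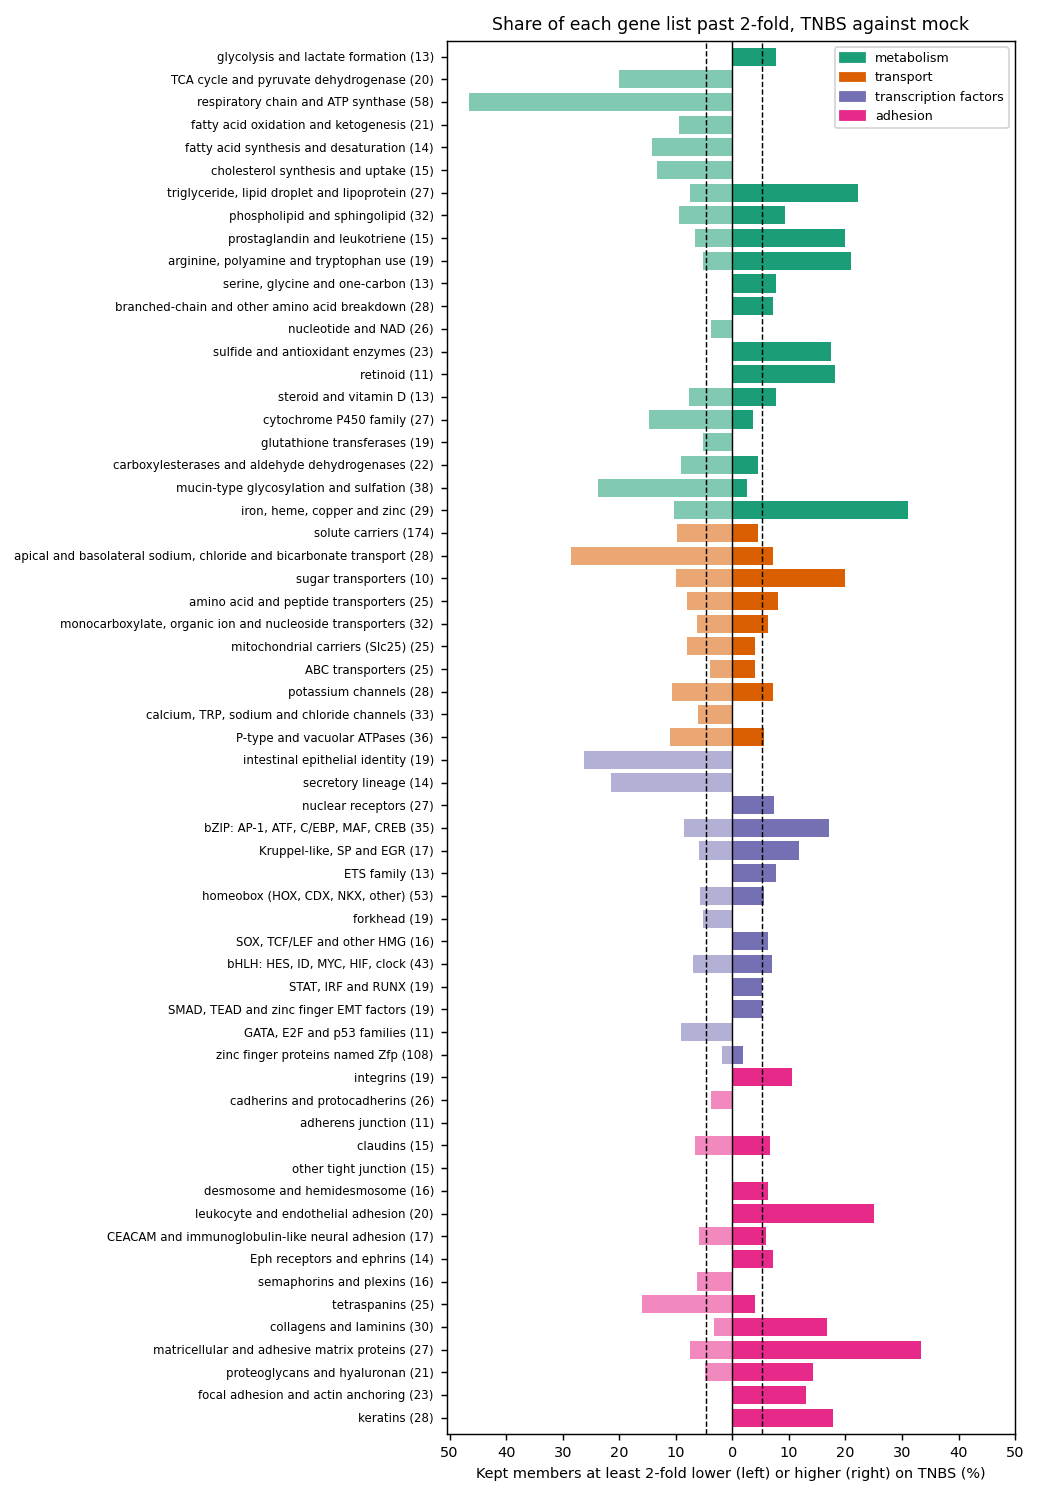
Share of kept members at least 2-fold lower (bars to the left) or higher (bars to the right) on the TNBS array than on the mock array, in percent, for the 61 gene lists with 10 or more kept genes; the number of kept genes stands after each name. Dashed lines mark the shares over all kept genes, 4.73% lower and 5.32% higher; the respiratory chain list reaches 46.6% lower and the matricellular list 33.3% higher.

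Genes of the respiratory chain and of ATP synthase, which make most of a cell's ATP from oxygen, were low on the TNBS array as a group. The list did not include succinate dehydrogenase (complex II), which is given separately below. Of 58 kept genes 27 were lower (46.6%, against 4.73% of all kept genes), none was higher, and all 58 lay below their mock value. The list's median was -0.84 (log2), against -0.035 over all kept genes. Most of these genes are bright, 49 of the 58 lying in the brightest of the 10 bins, where the median was -0.11. With the shift to the ribosomal protein median the list still had 15 lower members and a median of -0.57.

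By complex, complex IV (cytochrome c oxidase) had 6 of 10 members lower and a median of -1.10, and ATP synthase had 6 of 10 and -1.07. Complex I (NADH dehydrogenase) had 12 of 31 lower with a median of -0.75, and complex III had 3 of 7 with -0.90. Succinate dehydrogenase (complex II), outside the respiratory chain list, also serves the citric acid cycle. It had none of 4 members lower and a median of -0.31. Both kinds of ribosome, outside the chain and chosen after their values were seen, stood closer to all kept genes. Mitochondrial ribosomal proteins had 6 of 60 lower and 2 higher (median -0.26), and cytosolic ribosomal proteins had 2 of 18 lower (median -0.27). Both groups were dimmer than the chain, with median mock intensities of 1057 and 1103, against 6271. They are thus not matched to the chain for brightness, with which calls became more frequent.

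**Figure D2:**
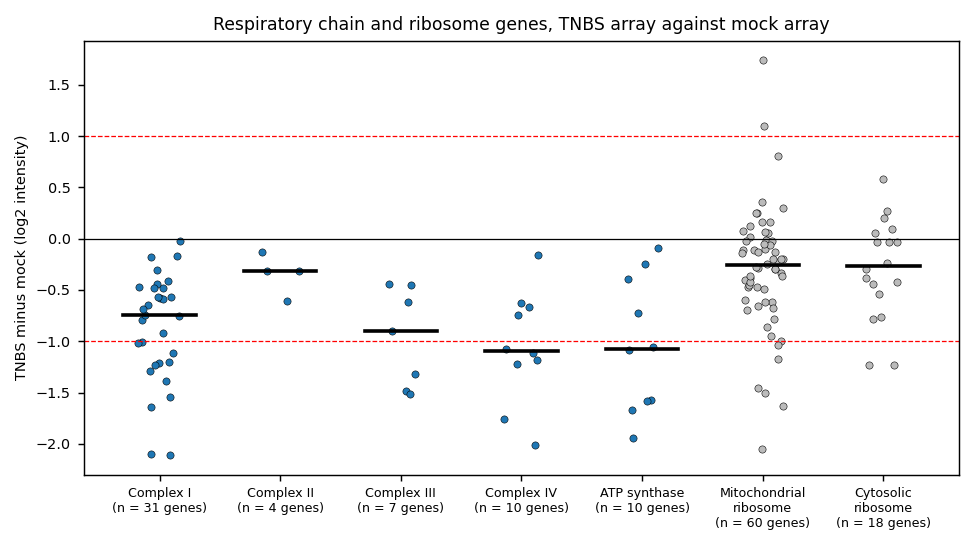
Difference between the TNBS and mock arrays (log2 intensity) for each kept gene of the 5 respiratory complexes (blue) and of the 2 kinds of ribosome (grey); each point is 1 gene, black bars are medians, and dashed lines mark 2-fold. Every blue point lies below 0, with medians from -0.31 (complex II) to -1.10 (complex IV), whereas the ribosome groups spread on both sides of 0.

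The deepest members sat in different complexes. Ndufb3, an accessory subunit of complex I, had an intensity of 3298 on mock and 766 on TNBS, 4.31-fold lower. Ndufb9, another such subunit, went from 5724 to 1332 (4.30-fold), and Cox5a of complex IV from 17079 to 4237 (4.03-fold). The 2 arrays given TNBS with an additive read between these values, with Cox5a at 9252 on the ginger array and 14803 on the zingerone array. The catalytic beta subunit of ATP synthase, Atp5b, was 3.85-fold lower, from 13062 to 3396, and the alpha subunit Atp5a1 2.97-fold, from 17459 to 5874. Large core subunits were among the lower genes too: Ndufs1, which carries iron-sulfur clusters of complex I, was 3.12-fold lower and Uqcrc1 of complex III 2.85-fold. At the other end of the list, Ndufc2 (8240 and 8136) and Atp5c1 (3009.6 and 2832) hardly differed between the arrays. Over the 58 genes the median intensity was lowest on the TNBS array, at 3851, against 6271 for mock, 5266 with ginger and 5582 with zingerone.

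Nuclear respiratory factor 1 (NRF1) is a transcription factor known to bind promoters of many respiratory chain genes, at a palindrome searched here by its core on both strands, in the 250 bases before each RefSeq start (GRCm38.p6). The core occurred in 7 of 50 respiratory chain promoters (14%), in 605 of 7740 promoters of kept genes (7.82%) and in 1144 of 27025 of all RefSeq genes (4.23%). Among respiratory chain genes the motif stood before 2 of 22 lower members and 5 of 28 others, so it was not more frequent before the lower members. The promoters of the 2 lower members, Ndufa8 (2.35-fold lower, chr2:36049339-36049588, minus strand) and Atp5k (2.12-fold lower, chr5:108434400-108434649, minus strand), are shown with the motif in capitals; both genes were less than 2-fold lower after the shift to the ribosomal protein median.
Ndufa8: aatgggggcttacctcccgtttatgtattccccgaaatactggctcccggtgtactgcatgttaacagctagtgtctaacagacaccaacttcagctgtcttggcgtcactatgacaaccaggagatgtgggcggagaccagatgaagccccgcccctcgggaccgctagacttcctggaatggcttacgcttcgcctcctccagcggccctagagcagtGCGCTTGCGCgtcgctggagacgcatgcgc
Atp5k: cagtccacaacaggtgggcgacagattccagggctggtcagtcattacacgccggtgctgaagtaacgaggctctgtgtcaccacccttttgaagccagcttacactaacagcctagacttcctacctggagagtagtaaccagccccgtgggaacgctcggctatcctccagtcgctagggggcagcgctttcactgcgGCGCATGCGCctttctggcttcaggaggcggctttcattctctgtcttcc
A match describes the letters only, and binding was not measured.

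The next list joined the citric acid cycle, which feeds the chain with electrons, to pyruvate entry and cytosolic malate dehydrogenase. It had 4 of 20 kept members lower and none higher, with a median of -0.33. Of those 4, Suclg1 alone is an enzyme of the cycle itself. Cytosolic malate dehydrogenase Mdh1 went from 11266 to 4530 (2.49-fold lower), and Suclg1, a subunit of succinyl-CoA ligase, from 17394 to 7379 (2.36-fold). Pdha1, the catalytic subunit by which pyruvate enters the cycle, was 2.48-fold lower, at 614 and 248, and the mitochondrial pyruvate carrier Mpc2 2.21-fold. Not all members shared this: mitochondrial malate dehydrogenase Mdh2 read 9208 on mock and 11456 on TNBS. After the shift to the ribosomal protein median, Suclg1 and Mpc2 were less than 2-fold lower.

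Glycolysis makes ATP from glucose without oxygen. Of 13 kept members 11 lay above mock, though Pfkfb3 alone passed 2-fold, and the median was 0.31. Pfkfb3, whose product drives the committed step of glycolysis, is an inducible kinase and went from 820.5 to 3278. Phosphoglycerate kinase Pgk1 (6366 and 11772), Pgam1 (8725 and 12854) and lactate dehydrogenase Ldha (9322 and 12432) were within 2-fold. H6pd, which opens the pentose phosphate route inside the endoplasmic reticulum, was 3.31-fold higher, at 422 and 1398, alone among 6 genes of that pathway.

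All 5 kept genes of gluconeogenesis and fructose use lay below mock (median -0.81), and Pck1, its rate-setting carboxykinase, was 2.29-fold lower in the mean of 2 probes, which gave -1.54 and -0.86 (log2). Pck1 was less than 2-fold lower with the brighter probe alone, and after the shift to the ribosomal protein median.

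Glycogen phosphorylases split by isoform. The brain form Pygb was 2.62-fold lower, from 1125 to 429.8. The liver form Pygl was 2.13-fold higher, from 269 to 572, so the list's 7 kept members had 1 call on each side.

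Fatty acid oxidation, the main use of butyrate in colonocytes, had 2 of 21 members lower (9.52%, against 4.73% of all kept genes). The list's median was -0.16. After the shift to the ribosomal protein median 2 were still lower, and the median was 0.11. Slc25a20, the carrier that brings acyl-carnitines into mitochondria, went from 1466 to 494 (2.97-fold lower), and Acaa2, the thiolase of the last step, from 3832 to 1554 (2.47-fold). Etfb (5899 and 3033), which passes electrons from this pathway to the respiratory chain, and Acads (579.5 and 334), the short-chain dehydrogenase, stood below mock by less than 2-fold. The entry enzyme Cpt1a read 3016 and 3882, so the list did not lie on 1 side.

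Among 14 genes of fatty acid synthesis and desaturation 2 were lower and none higher (median -0.48). The desaturase Fads2, which makes polyunsaturated fatty acids, was 3.07-fold lower, and its 2 probes gave -1.63 and -1.61 (log2). Scd2, which makes monounsaturated fatty acids, went from 6618 to 3084. Cholesterol synthesis had 14 of 15 members below mock and 2 lower (median -0.40): Idi1 (3590.5 to 1501) and Fdps (2597 to 1187), neighbouring steps that make and join isoprene units. Scd2, Idi1 and Fdps were each less than 2-fold lower after the shift to the ribosomal protein median.

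Lipid storage and handling stood mainly higher, with 6 of 27 members higher and 2 lower (median 0.31). G0s2, an inhibitor of the main triglyceride lipase, went from 293 to 1834 (6.26-fold higher), and Dgat2, which makes triglyceride, from 504 to 1762 (3.49-fold). The lipid droplet proteins Cidec (2.37-fold) and Plin3 (2.11-fold) and the fatty acid receptor Cd36 (2.48-fold) were higher as well. Fabp4, carried by adipocytes and macrophages, was 11.04-fold higher, while its epithelial relative Fabp2 was 4.48-fold lower, from 1780 to 397. The adipocyte marker list shares Fabp4 and Cidec with this list, so the lists are not independent. Summed adipocyte markers went from 9774 to 64164, of which Fabp4 alone made up 4159.5 and 45906. Adipoq, also an adipocyte marker, was within 2-fold at 0.41 (log2). The part of adipocytes in this list was not tested.

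The phospholipid and sphingolipid list had 3 of 32 members higher and 3 lower. Pla2g2a, which kills Gram-positive bacteria and is defective in some mouse strains, went from 3821 to 1111, and Pla2g10 from 2782 to 1078. Pla2g7, a macrophage enzyme that breaks down platelet-activating factor, was 10.1-fold higher, from 668 to 6743. Sphingosine kinase Sphk1 was 3.19-fold higher and the ceramidase Acer1 2.48-fold lower.

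Prostaglandin and leukotriene genes had 3 of 15 members higher (20%, against 5.32% of all kept genes) and 1 lower (6.67%, against 4.73%). They had 8 above and 7 below mock and a median of 0.13. Alox5ap, the protein that presents arachidonic acid to 5-lipoxygenase, went from 435 to 5029.8 (11.6-fold higher), and prostacyclin synthase Ptgis from 268 to 1729.5 (6.46-fold). Hpgd, the enzyme that inactivates prostaglandins, was 4.82-fold lower, and its 2 probes read 2357 and 1297 on mock against 368 and 356 on TNBS. On the ginger and zingerone arrays the Hpgd mean was 1304 and 1828, against 1748 on mock. Slco2a1, the transporter that takes up prostaglandins for breakdown, was 3.34-fold higher, from 399 to 1332.

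The list of arginine, polyamine and tryptophan use had 4 of 19 members higher (21.1%, against 5.32% of all kept genes). It had 1 lower (5.26%, against 4.73%). Both arginases were higher, Arg1 from 312 to 956 and Arg2 from 208 to 652, and spermine oxidase Smox went from 787 to 1985. Agmat, which makes putrescine from agmatine, was 2.20-fold lower, but less than 2-fold after the shift to the ribosomal protein median. Tph1, which starts serotonin synthesis, went from 176 to 425. Arg2 and Tph1 were under the filter on mock and stayed in through the TNBS array alone. Asparagine synthetase Asns, a target of the amino acid stress response, went from 754 to 2168. It was the 1 higher member of 13 in the serine and one-carbon list (7.69%, against 5.32% of all kept genes).

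Metal handling was the metabolic list with the largest number of higher members, 9 of 29, with 3 lower and a median of 0.25. Metallothioneins, small cysteine-rich proteins that bind zinc and copper, led it together with haptoglobin. Mt2 went from 8324 on mock to 60415 on TNBS, and read 30416 on ginger and 33341 on zingerone. Mt1 went from 14466 to 51505, near the top of the intensity scale (64634), where folds may be compressed. Mt4, known from stratified epithelia, went from 1549.5 to 7864, and Mt3 read 693 and 564. These genes are similar in sequence, and shared hybridisation between them was not tested.

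Metal response elements, bound by the zinc-sensing factor MTF1, were searched on both strands as TGCNCNC, where N is any base. This pattern is looser than the element's usual core, which has A or G after TGC. Some matches printed below, before Mt2 and Mt4, have C or T there and lie outside that core. The searched pattern is common: it occurred in 12755 of 27025 RefSeq promoters (47.2%). It also occurred in 214 of 394 promoters of higher genes (54.3%), close to the 55.4% of all kept genes. The 250 bases before the starts of Mt2 (chr8:94172368-94172617), Mt1 (chr8:94178839-94179088) and Mt4 (chr8:94136954-94137203), all on the plus strand and neighbours on the chromosome (RefSeq, GRCm38.p6), held 5, 1 and 4 matches, which are in capitals; adjacent matches run together.
Mt2: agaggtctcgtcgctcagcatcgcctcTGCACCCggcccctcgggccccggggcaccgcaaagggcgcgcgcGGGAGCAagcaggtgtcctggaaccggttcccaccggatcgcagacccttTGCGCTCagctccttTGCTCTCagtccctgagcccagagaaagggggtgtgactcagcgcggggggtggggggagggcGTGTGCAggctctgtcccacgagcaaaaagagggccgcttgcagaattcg
Mt1: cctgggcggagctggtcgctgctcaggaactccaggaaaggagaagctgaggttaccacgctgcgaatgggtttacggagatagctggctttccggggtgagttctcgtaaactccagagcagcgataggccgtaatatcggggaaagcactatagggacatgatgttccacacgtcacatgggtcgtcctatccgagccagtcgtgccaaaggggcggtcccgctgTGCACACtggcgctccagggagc
Mt4: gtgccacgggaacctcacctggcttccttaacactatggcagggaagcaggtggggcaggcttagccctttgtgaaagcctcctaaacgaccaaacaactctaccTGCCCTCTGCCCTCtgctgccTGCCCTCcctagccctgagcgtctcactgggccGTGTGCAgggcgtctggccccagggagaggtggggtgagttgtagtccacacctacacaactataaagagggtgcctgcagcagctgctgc

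Among the iron genes, ferritin heavy chain Fth1, part of the iron storage shell, went from 6825 to 19702 (2.89-fold higher), whereas the light chain Ftl1 read 49594 and 42810.2. Hp, haptoglobin, which binds free hemoglobin, went from 1195 to 30534 (25.6-fold). Ferroportin Slc40a1, the cell's iron exporter, was 2.68-fold lower, from 2154 to 803. Hamp, hepcidin, the hormone that degrades ferroportin, went from 258 to 854, though it has a close mouse paralog and the probe may not tell them apart. Lactoferrin Ltf, a neutrophil granule protein, was 2.08-fold higher. Of the heme synthesis enzymes, Alas1, the first step, was 2.05-fold higher and Alad, the next one, 2.32-fold lower, though less than 2-fold after the shift to the ribosomal protein median. The zinc importer Slc39a5 went from 708 to 254.

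Antioxidant genes had 4 of 23 members higher and none lower. Mitochondrial superoxide dismutase Sod2 went from 5929.8 to 33501 (5.65-fold), and the secreted peroxidase Gpx3 from 686 to 1707. Oxidant-producing oxidases had 2 of 7 members higher and 1 lower, with 4 below mock and a median of -0.072. Ncf4 (3.37-fold higher) and Ncf1 (2.44-fold) encode subunits of the phagocyte oxidase, and Lpo, the lactoperoxidase of secretions, was 3.21-fold lower, from 2133 to 665. Ncf1 read 147.5 on mock, under that array's lower quartile of 165, and stayed in through the TNBS array alone. Summed neutrophil markers went from 5737 to 148978 over the same arrays, and their part was not tested.

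Vitamin A metabolism had 2 of 11 members higher (18.2%, against 5.32% of all kept genes) and none lower, but 6 of the 11 lay below mock and the median was -0.071. Aldh1a3, which makes retinoic acid, went from 1180.5 to 9804 (8.30-fold), and Rdh10, which makes its precursor retinal, from 375 to 1166. In steroid metabolism, Hsd17b2, which inactivates estradiol and testosterone, was 2.38-fold lower (less than 2-fold after the shift to the ribosomal protein median), and the aldo-keto reductase Akr1b8 was 3.02-fold higher.

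Among detoxifying enzymes, cytochrome P450 genes had 4 of 27 lower (14.8%, against 4.73% of all kept genes) and 1 higher, with a median of -0.19. After the shift to the ribosomal protein median 1 was lower and 1 higher, and the median was 0.086. Cyp4f14 went from 1404 to 313 (4.48-fold lower), whereas Cyp4f18, a leukotriene hydroxylase of neutrophils, was 3.05-fold higher. The glutathione transferase Gstt3 went from 1809.8 to 460.5, the glucuronosyltransferase Ugt2b34 from 672 to 218 and the aldehyde dehydrogenase Aldh1b1 from 1935 to 591. Gstt3 was the 1 lower member of 19 glutathione transferases, a share of 5.26% that is near the 4.73% of all kept genes. Ugt2b34 was the 1 lower member of 9 glucuronosyl- and sulfotransferases, whose median went from -0.17 to 0.096 with the shift. Hao2, a peroxisomal hydroxy acid oxidase outside the lists, was 5.09-fold lower, from 3464 to 681.

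Enzymes that build the sugar chains of mucins had 9 of 38 members lower (23.7%, against 4.73% of all kept genes) and 1 higher, with a median of -0.29. After the shift to the ribosomal protein median 4 were lower, Gne no longer among them, and 3 higher. Galnt6, which adds the first sugar, went from 974 to 252 (3.86-fold lower). B3galt5, which extends the chains, went from 6422 to 1909, and Slc35a1, which carries CMP-sialic acid into the Golgi, from 2571 to 781. Gne, which starts sialic acid synthesis, and the sialyltransferase St6gal1 were also lower (2.17-fold and 2.46-fold), whereas the sialyltransferase St3gal4 was 2.95-fold higher, from 393 to 1158. The membrane mucin Muc13, 1 of the 3 kept transmembrane mucins and all of them below mock, was 3.71-fold lower, and its 2 probes gave -1.87 and -1.91 (log2).

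Carbonic anhydrases, which supply bicarbonate and protons for ion exchange, had 2 of 9 members lower (22.2%, against 4.73% of all kept genes) and none higher. The membrane-bound Car4 went from 7778 to 968, and the cytosolic Car2 from 10607 to 2556, while Car1 read 555 and 357. Hypoxia-inducible Car9 read 850.5 and 1139.5, so the isoforms did not share 1 direction.

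Ion transport genes of the colon epithelium had 8 of 28 members lower (28.6%, against 4.73% of all kept genes) and 2 higher, with a median of -0.32. After the shift to the ribosomal protein median these counts were 7 and 4. The list also counts the hormone gene Guca2a and the pump regulators Fxyd4 and Fxyd5, so its shares are not those of transporters and channels alone. Members from both faces of the epithelial cell were among the lower ones. On the side facing the gut, the chloride channel Cftr went from 767 to 201 (3.81-fold lower) and the chloride-bicarbonate exchanger Slc26a3 from 2377 to 418. Of other channels, the bicarbonate channel Best2 of goblet cells was 2.87-fold lower and the chloride channel Clcn2 2.16-fold, the latter less than 2-fold after the shift. On the side facing the blood, the sodium pump subunit Atp1b1 was 3.43-fold lower in the mean of 2 probes, of which the brighter read 35294 on mock and 14577 on TNBS. Guca2a and Guca2b encode guanylin and uroguanylin, hormones that open Cftr, and went from 20660 to 2772 and from 2529 to 1017; their receptor Gucy2c read 366 and 197. Clca1, secreted by goblet cells, has 3 probes that differ in sign: the brightest went from 23979.5 to 1809, and the dimmest read 259.5 and 296.

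The route of sodium absorption through the epithelial sodium channel differed less: its channel subunits Scnn1a (1210.1 and 1456), Scnn1b (707 and 634) and Scnn1g (307 and 296) were within 2-fold. The sodium-proton exchanger Slc9a3 was below the filter on both arrays, at 216 and 169.5. Regulators of the sodium pump were the higher members, Fxyd5 from 892 to 3196 (3.58-fold) and Fxyd4 from 658 to 1427 (2.17-fold). Fxyd4 read 4413 on the zingerone array, the highest of the 4 arrays. None of the 9 kept aquaporins passed 2-fold, the colonocyte water channel Aqp8 reading 1451 and 849.

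Potassium channels, which recycle potassium during secretion, had 3 of 28 members lower (10.7%, against 4.73% of all kept genes) and 2 higher (7.14%, against 5.32%). With the ribosomal shift 1 was lower and 2 higher. Kcne3, the subunit that keeps the basolateral channel of crypt cells open, went from 1315 to 292 (4.50-fold lower). Another member of its family, Kcne4, went from 299 to 1565 (5.23-fold higher). The colonic proton-potassium pump Atp12a was 3.64-fold lower, from 3174 to 871, and the calcium pump Atp2a3 2.43-fold. Atp6v1b2, a subunit of the pump that acidifies lysosomes, was the higher one of 17 kept genes of that pump, at 1317 and 2848.

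Over all 174 kept solute carriers 17 were lower and 8 higher, 9.77% and 4.60%, against 4.73% and 5.32% of all kept genes. After the shift to the ribosomal protein median the balance turned, with 12 lower and 15 higher. Nutrient carriers of the epithelium were among the lower ones. Slc13a2, which takes up citrate and other dicarboxylates, went from 2190.5 to 438 (5.00-fold), and Slc7a9, part of a cystine and basic amino acid exchanger, from 528 to 176. The amino acid importer Slc6a14 went from 575 to 199, near the TNBS array's lower quartile of 164.5. The glucose carrier Slc5a1 was 2.04-fold lower in the mean of 2 probes, but less than 2-fold with a floor at the lower quartile and after the shift. Slc5a8, which takes up butyrate, has 2 unlike probes: the brighter went from 952 to 299.6, and the dimmer read 142 and 142.

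Among the higher solute carriers, Slc15a3, a lysosomal peptide and histidine carrier, went from 383 to 4998 (13.04-fold), the largest increase in the family. The high-affinity glucose carrier Slc2a3 went from 204 to 988 and the related Slc2a6 from 402 to 1362, while Slc2a1 read 1789 and 3434. The lactate exporter Slc16a3 was 3.13-fold higher, and Slc3a2, the shared heavy chain of several amino acid exchangers, 2.72-fold. Abca1, which exports cholesterol, was the higher one of 25 ABC transporters (4%, against 5.32% of all kept genes), from 290.2 to 1196. The sulfate carrier Slc26a1 had the largest decrease of all kept genes, but its 1 probe stood apart on the mock array (8113, against 202, 194 and 181 on the others).

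**Figure D3:**
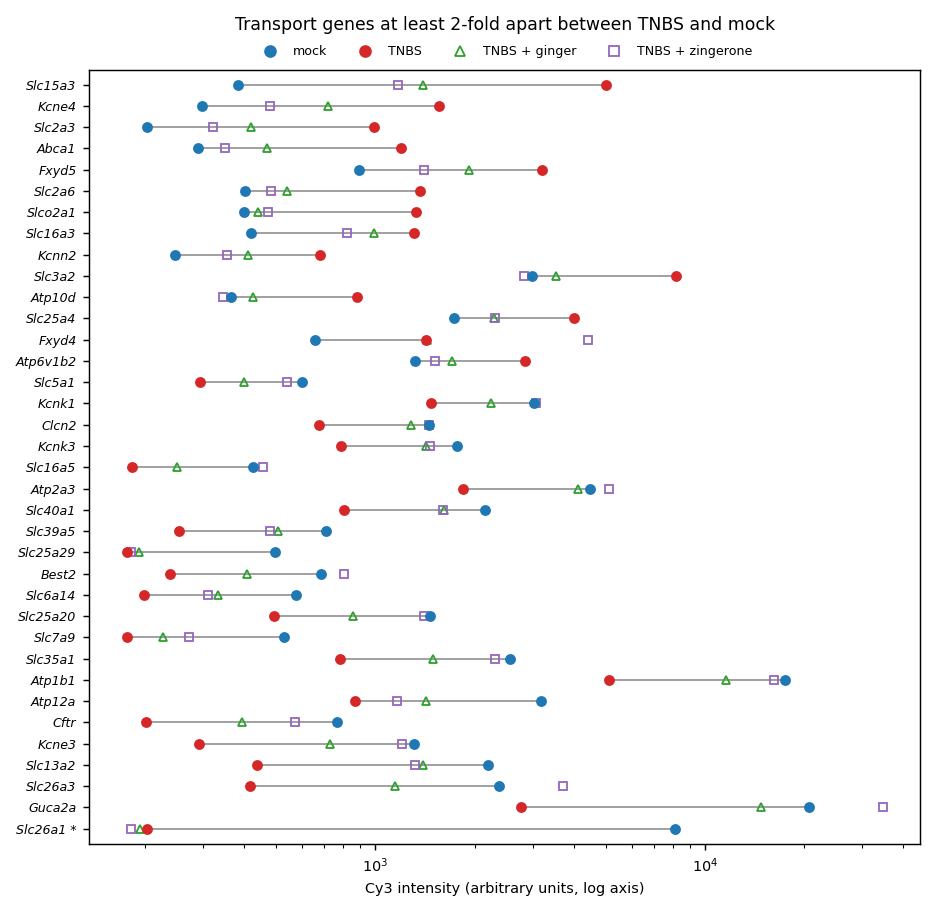
Cy3 intensity (log axis) of 36 transport genes at least 2-fold apart between the mock (blue) and TNBS (red) arrays, ordered by difference; open triangles and squares are the ginger and zingerone arrays, and an asterisk marks a gene with a probe that stands apart on 1 array. Slc15a3 has the widest increase, 383 to 4998, and Slc26a1 rests on the mock array alone. Only genes picked by the naming rule of the processing section are drawn, out of 15 higher and 30 lower transport genes.

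The transcription factor lists held 381 kept genes, of which 21 were higher and 15 lower, 5.51% and 3.94%. These shares are close to those of all kept genes, so transcription factors were not called more often as a whole. Genes that set the identity of intestinal epithelium had 5 of 19 members lower (26.3%, against 4.73% of all kept genes) and none higher. Of the 19, 17 lay below mock, and the median was -0.47.

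Cdx2, the homeobox gene that specifies intestine, went from 564 to 257 (2.20-fold lower) and read 487 on ginger and 988 on zingerone. Its relative Cdx1 (803 and 456) and Hnf4a (6974 and 4296), a receptor that drives absorptive genes, were below mock by less than 2-fold. Klf5, active in dividing crypt cells, went from 7597 to 3067, whereas Klf4 of surface cells has 3 probes, at -1.01, -0.025 and -0.20 (log2). Isx, which restrains vitamin A absorption, went from 481 to 149, under the TNBS array's lower quartile, and Ovol2, which holds cells epithelial, from 590 to 209. Foxa3 was 2.19-fold lower. Cdx2 and Foxa3 were each less than 2-fold lower after the shift to the ribosomal protein median, and markers of colon epithelium had a median of -0.62 over 12 genes, beside the -0.47 of this list.

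Secretory lineage factors had 3 of 14 members lower and none higher. Atoh1, needed for every secretory cell, went from 1120.1 to 393, and Creb3l4 from 888 to 239.8 (3.70-fold). Hes6, an inhibitor of Notch output, was 2.64-fold lower, from 4686 to 1777. The position gene Hoxa10, active in hind gut, went from 1170 to 406, while its neighbour Hoxa11 went from 241 to 489.5.

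Leucine zipper factors had 6 of 35 members higher (17.1%, against 5.32% of all kept genes) and 3 lower (8.57%, against 4.73%), with a median of 0.34. Cebpb, a factor of macrophages and of the acute phase, led all transcription factors, from 984 on mock to 19442 on TNBS (19.8-fold), with 4546 on ginger and 3868 on zingerone. Jdp2, which binds the same DNA sites as AP-1, went from 526 to 3539.8 (6.73-fold), and Junb, an AP-1 subunit, from 1195 to 2829.5. Nfe2, a factor of blood cell lineages, was 4.50-fold higher and Maff 2.82-fold. Jun itself was bright on both arrays, 9446 and 11993, and Fos has 2 unlike probes, of which the brighter went from 665 to 1909.8 and the other read 199 and 202.

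AP-1 sites were searched as TGANTCA, a palindrome, in the 250 bases before RefSeq starts (GRCm38.p6). They occurred in 53 of 394 promoters of higher genes (13.5%), in 19 of 371 of lower genes (5.12%), in 508 of 7740 of all kept genes (6.56%) and in 2113 of 27025 RefSeq promoters (7.82%). This was 1 of 11 motifs searched, and the shares are a description with no test. Among higher list members with a site, Cntn4 was passed over because its probe stands apart. Mt2 was passed over because its promoter is printed above, with its 1 site unmarked. Genes of 1 chromosome were left out of this choice. Of higher genes in the lists here, the promoters of Cldn4 (3.63-fold higher, chr5:134946935-134947184, minus strand), with 2 sites, and Hamp (3.31-fold higher, chr7:30944030-30944279, minus strand), with 1, are shown with the sites in capitals.
Cldn4: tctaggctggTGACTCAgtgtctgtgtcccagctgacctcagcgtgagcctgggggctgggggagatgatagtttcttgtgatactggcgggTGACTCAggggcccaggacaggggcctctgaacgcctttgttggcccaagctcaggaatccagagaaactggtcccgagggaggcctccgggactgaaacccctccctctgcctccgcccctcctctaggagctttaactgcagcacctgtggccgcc
Hamp: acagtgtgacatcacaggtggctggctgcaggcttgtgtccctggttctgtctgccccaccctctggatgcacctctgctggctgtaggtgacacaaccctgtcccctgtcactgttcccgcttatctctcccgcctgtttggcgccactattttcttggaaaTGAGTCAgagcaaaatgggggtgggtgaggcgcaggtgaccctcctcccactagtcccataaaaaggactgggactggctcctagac

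Clock output genes in the same family lay on opposite sides. Dbp, an activator of rhythmic genes, went from 2670.2 on mock to 368 on TNBS (7.26-fold lower), with 1187 and 1612 on the ginger and zingerone arrays, while Nfil3, a repressor that binds the same sites, went from 212 to 686 (3.24-fold higher). Of 10 kept clock genes no others passed 2-fold: Per2 read 513 and 583, and Nr1d1 563 and 473. The labels used here do not give the hour of sampling.

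Among zinc finger and other families single members stood out. Klf2, a factor of endothelium and lymphocytes induced by blood flow, went from 639.8 to 5683 (8.88-fold higher). The nuclear receptor Nr4a1 was 8.49-fold higher, from 272 to 2304, and estrogen receptor beta, Esr2, 6.37-fold, from 245 to 1563. Hif1a, the oxygen-regulated factor that induces glycolysis genes, went from 2351 to 6699 (2.85-fold), Ets2 from 2682 to 6508 and Tgif1, which restrains TGF-beta signalling, from 374 to 1343. Metabolic regulators differed little: Pparg read 475 and 379, Ppara 300 and 300.2, and Myc has 2 probes that differ in sign (1.11 and -0.046). Nr3c1 (156 and 158) was below the filter. The 108 kept genes named Zfp had 2 higher and 2 lower (1.85% each, under the 5.32% and 4.73% of all kept genes).

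**Figure D4:**
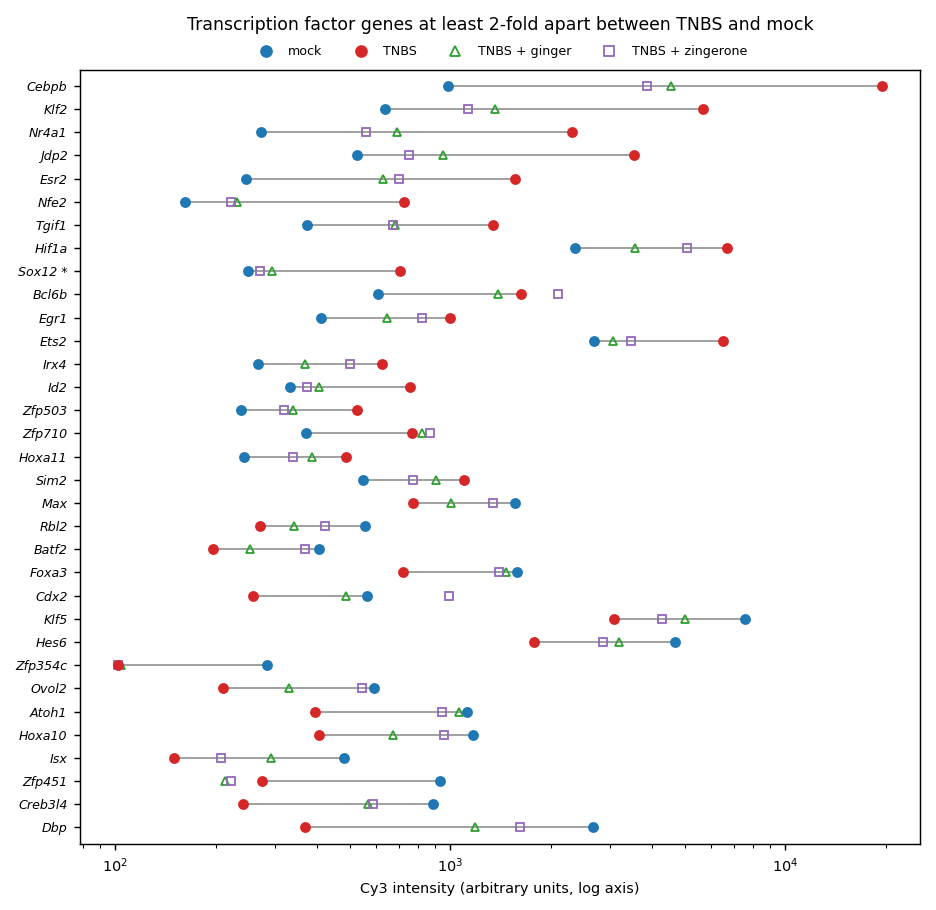
Cy3 intensity (log axis) of 33 transcription factor genes at least 2-fold apart between the mock (blue) and TNBS (red) arrays, ordered by difference; open triangles and squares are the ginger and zingerone arrays, and an asterisk marks a gene with a probe that stands apart on 1 array. Cebpb and Klf2 have the widest increases, and Dbp the widest decrease. Only genes picked by the naming rule of the processing section are drawn, out of 21 higher and 15 lower transcription factor genes.

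Over the adhesion lists 36 of 320 kept genes were higher (11.2%, against 5.32% of all kept genes) and 13 lower (4.06%). Cell-to-cell junctions differed little: none of 11 kept adherens junction genes and none of 15 tight junction genes outside the claudins passed 2-fold. E-cadherin Cdh1 read 9699.6 and 8217, Epcam 23352 and 16459.7, Ctnnb1 6339 and 4826, Tjp1 1135 and 1469, and Ocln 268 and 286.

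Claudins, the proteins that set the permeability of tight junctions, had 1 of 15 members on each side. Each share of 6.67% is near the 5.32% higher and 4.73% lower of all kept genes. Cldn4 went from 1219 to 4422 (3.63-fold higher) and Cldn8 from 844 to 257 (3.29-fold lower). The bright claudins Cldn7 (26639 and 21967) and Cldn3 (15292 and 7752) were within 2-fold, Cldn3 at -0.98 (log2) just so. Celsr1, a cadherin of planar polarity, was the 1 lower member of 26 cadherins, from 946 to 362. That share of 3.85% is below the 4.73% of all kept genes. Plxnb2, a semaphorin receptor of epithelia, went from 2049.5 to 775.

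Contacts with the matrix were mixed. Integrins had 2 of 19 members higher (10.5%, against 5.32% of all kept genes) and none lower. Of the 19, 11 lay below mock, and the median was -0.028. Desmosome and hemidesmosome genes had 1 of 16 higher (6.25%, near the 5.32% of all kept genes), with a median of -0.079. Lama3, a chain of laminin-332 that anchors epithelium through hemidesmosomes, went from 530 to 3276 (6.18-fold), and integrin Itga3, a receptor for it, from 1575 to 3659.5. The partner chain Lamb3 read 3186 and 4601, and the hemidesmosome integrin chain Itgb4 580.2 and 329. Keratins had 5 of 28 members higher (17.9%, against 5.32% of all kept genes) and none lower. Krt13 was 1 of the 5, through a probe that stood apart. Of the 28 keratins 15 lay below mock, and the median was -0.013. Krt7, a keratin of ducts and of injured epithelium, went from 2500 to 12546 (5.02-fold) and Krt18 from 8565 to 18134. Krt19 read 19771 and 13656, and Krt20 of surface cells 7648 and 12315. Kindlin-2, Fermt2, which activates integrins, was 3.77-fold higher, and focal adhesion kinase Ptk2 2.09-fold, while the common integrin chain Itgb1 read 3321 and 5219.

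Matricellular and adhesive matrix proteins had 9 of 27 members higher (33.3%, against 5.32% of all kept genes) and 2 lower (7.41%, against 4.73%). Of the 27, 12 lay below mock, and the median was 0.43. Spp1, osteopontin, a ligand of integrins made by macrophages, went from 176 to 2692 (15.3-fold). Ccn2, connective tissue growth factor, went from 491 to 5439.5 (11.1-fold), and tenascin-C, Tnc, a protein of healing wounds, from 396 to 1790.2. The ginger and zingerone arrays read 1273 and 1410.2 for Ccn2, and 574 and 490.2 for Tnc. Tgfbi was 4.25-fold higher, and Sparc, bright on both arrays, went from 7864 to 23447. Thbs4 was the deepest decrease of the list, from 3716 to 829.5 (4.48-fold lower), with 4603 on zingerone, and Ccn3, a family member of Ccn2, was 2.82-fold lower.

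Among collagens and laminins 5 of 30 were higher, and basement membrane chains led: Col4a2 went from 1955 to 6773 and Col18a1 from 566 to 1724. Fibrillar collagens did not share this, with Col1a1 at 300 and 278, Col1a2 at 1888 and 1165, and Col3a1 at 1020.3 and 1593. Srgn, the proteoglycan of leukocyte granules, had the largest increase of the adhesion lists, from 1276 to 30878 (24.2-fold). Has1, which makes hyaluronan, was 2.89-fold higher, and its receptor Cd44 has 3 unlike probes, of which the brightest went from 522 to 5128, the next read 249.8 and 262, and the dimmest 180 and 170.2.

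Leukocyte and endothelial adhesion genes had 5 of 20 members higher and none lower, with 15 above mock and a median of 0.58. Selplg, the selectin ligand by which leukocytes roll, went from 969 to 3889 (4.01-fold), and Icam1, the endothelial partner of leukocyte integrins, from 348 to 896. The integrin chain Itgb2, shared by those leukocyte receptors, was 2.03-fold higher, from 216 to 439. Podxl of endothelium went from 447 to 1402. Vcam1 has 2 probes, of which the brighter went from 558 to 1946 and the other read 112 and 137. Madcam1, the endothelial ligand for the gut homing integrin of leukocytes, read 439 and 268, below mock by less than 2-fold.

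Tetraspanins, which organise receptors in the membrane, had 4 of 25 members lower (16%, against 4.73% of all kept genes) and 1 higher (4%, against 5.32%). The balance turned with the ribosomal shift, to 2 lower and 4 higher. Tspan1, carried by secretory epithelium, went from 1733 to 447 (3.88-fold lower) and Cd82 from 1492 to 519. Tm4sf1, of endothelium and mesenchyme, went from 475 to 3729 (7.86-fold higher). The cell adhesion gene Cntn4 passed 2-fold only through 1 probe that stood apart on the TNBS array, at 26479, while the other probe read 241 and 213.

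**Figure D5:**
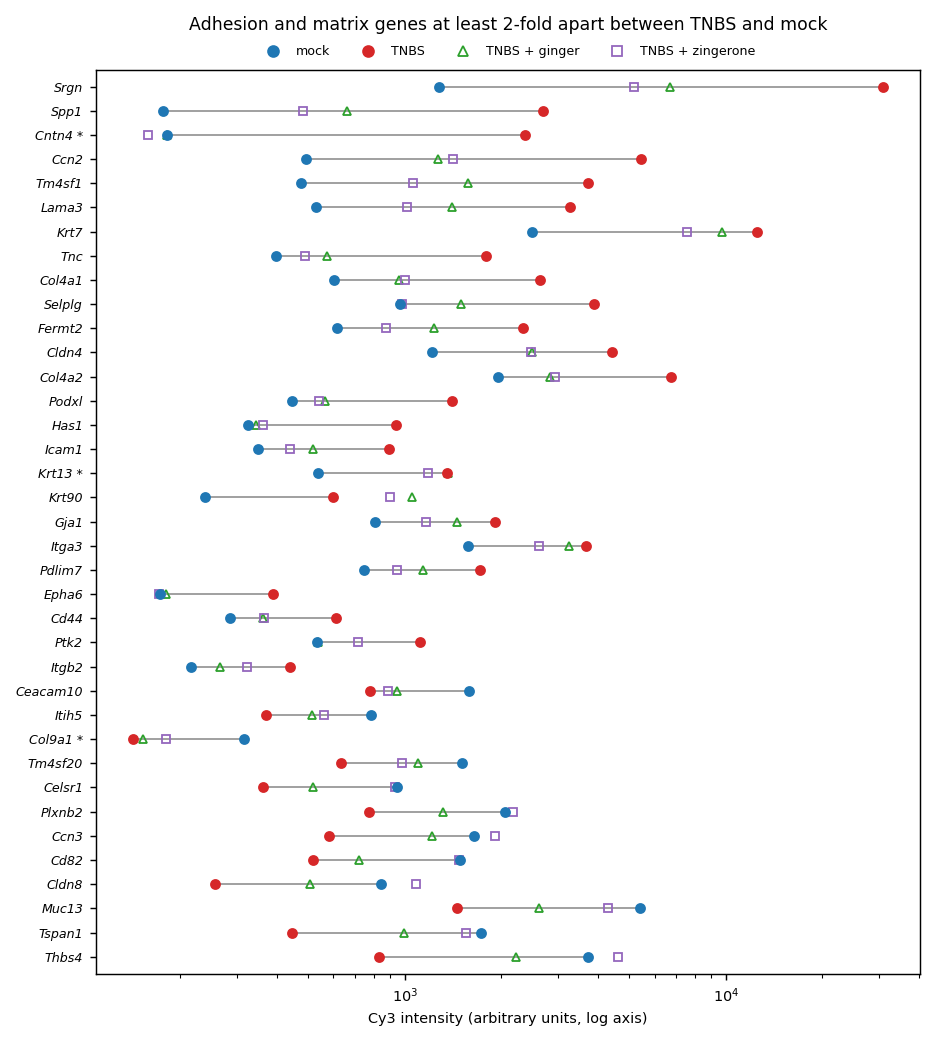
Cy3 intensity (log axis) of 37 adhesion and matrix genes at least 2-fold apart between the mock (blue) and TNBS (red) arrays, ordered by difference; open triangles and squares are the ginger and zingerone arrays, and an asterisk marks a gene with a probe that stands apart on 1 array. Srgn runs from 1276 to 30878, and Thbs4, at the foot, from 3716 to 830. Only genes picked by the naming rule of the processing section are drawn, out of 36 higher and 13 lower adhesion genes.

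Several of the largest differences fell outside these lists. Acod1, which makes itaconate from a citric acid cycle intermediate in activated macrophages, went from 315 to 10858 (34.5-fold higher), with 2745 on ginger and 1849 on zingerone. Clec4d, a myeloid receptor for fungal sugars, went from 254 to 4382, and Ctla2a, a protease inhibitor, from 842 to 13791. On the lower side stood secreted products of the epithelium: Dmbt1, a bacteria-binding glycoprotein, went from 14577 to 2609.8 (5.59-fold lower), the lectin Reg4 from 8165 to 1443 and Sval1 from 22218 to 4267. Prss32, a serine protease, was 5.22-fold lower, Mrgprb4, known from sensory neurons, 5.13-fold, and Ifi27l2b 5.64-fold. Irgm2, an interferon-induced GTPase, was 5.84-fold lower, with 1 probe that stood apart on the mock array.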

How the data were processed

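Total RNA of mouse colon, 1 array per group, was labelled with Cy3, per the labels' protocols. The authors deposited 1 linear intensity per probe. Limma appears in the submitters' processing notes, without version or role; no source used here states the background handling or the normalization. Sorted deposited intensities of the 4 arrays differ by at most 1.84%, as after quantile normalization. The lowest is 74.25, with no sign of background subtraction, which would compress folds of dim probes.

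Of 29922 probes 21020 have 1 gene symbol and 8902 have none; against RefSeq's table (GRCm38.p6) 17558 symbols were current, 3410 were updated and 52 stayed as given. The annotation can be old, and probe sequences were not used here. Log2 intensities were averaged per gene, with no pseudocount, in Python 3.11.15 with pandas 2.3.3. Probes are said to stand apart on an array that lies 4-fold or more beyond all of the others, while those lie close together. No test was run: 1 array per group leaves no residual degrees of freedom.

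The members, the 70 gene lists and the genes to name were chosen with earlier results of these data known. The rule names the 3 largest differences past 2-fold each way per list, the 25 largest each way of all kept genes, and a fixed set of regulators, transporters and junction genes. Genes within 2-fold, and others outside the rule, were chosen after their values were seen. Promoters are RefSeq's, 250 bases before the start. Alternatives were other normalizations, floors, filters, probe rules and a 3-fold threshold; the shift to ribosomal proteins was added after seeing the data. The steps were tested on simulated data.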

Additional observations from a re-analysis of the deposited data

Results flagged for a closer look

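Probes without a gene name were used in no comparison. Of 8902 such probes 2917 were at or above the named median on mock or TNBS, and 131 of these were at least 2-fold higher on TNBS (4.49%) and 135 lower (4.63%), against 5.32% and 4.73% of kept genes. They stand here because they hold signal in data that the report left out.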

How the results depend on the processing

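The counts of 511 higher and 455 lower genes stayed within 1.5 times under quantile normalization, equal medians, a floor at each array's lower quartile, filters at no level, at the upper quartile or over all 4 arrays, the brightest probe, the median of probes, and without probes that stand apart (458 to 600 higher, 401 to 514 lower). They were 854 and 812 after subtraction of each array's 5th percentile, which widens folds of dim probes, 228 and 118 at 3-fold, and 867 and 246 with the shift to the ribosomal protein median, added after seeing the data. No named gene past 2-fold changed sign in the settings that kept it, and 182 of 212 stayed past 2-fold, the same way, in each of these at the 2-fold threshold. The respiratory chain list had 26 or 27 lower members in the settings run at 2-fold, except 15 with the ribosomal shift, and 7 at 3-fold. List medians between 0 and -0.27 change sign under that shift, among them those of fatty acid oxidation and solute carriers. Leaving out a replicate was not run, because each group is 1 array. No paired analysis was possible because there is 1 array per group. Dim genes are limited by background: near the lower quartile of 165 on mock, a fold has little meaning.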

Other observations

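For Clptm1l the 4 arrays split in pairs, with 21509.5 for mock and 23979.5 for zingerone against 1916 for TNBS and 1859.5 for ginger. Some probes named for genes of hair and skin were bright on both arrays: Krt84 read 8043 and 4760.2, Krt35 4781 and 4632, and the homeobox gene Hoxc12 30656 and 34596. Whether these probes measure the genes they are named for was not tested.

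Proteasome genes, a group chosen after its values were seen, had 4 of 35 members lower and 1 higher, with a median of -0.048 (log2, TNBS minus mock).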
